A study of Rattus norvegicus with 18 samples.

Results

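Endomucin (Emcn) is a sialomucin, a heavily O-glycosylated membrane protein rich in sialic acid, and was read in cultured rings of rat thoracic aorta. It is 1 of 13811 genes that the arrays name by a probe set of their own. All probe sets annotated to Emcn and to no other gene were taken, which gave 1 of the 15923 probe sets of the Affymetrix RAE230A array (array A), probe set 1372587_at, and 0 of the 15333 probe sets of the RAE230B array (array B). Emcn was chosen by its measured signal, which was higher in VEGF rings than in untreated rings of these same arrays, so that difference is given as a description and with no test.

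The study asked how aortic rings respond to an angiogenic growth factor and to a vessel-maturing ligand. It held 9 RNAs, 3 per group, each hybridised to both array types, which makes 18 samples. The VEGF group received recombinant human vascular endothelial growth factor (10 ng/ml). The Ang1 group received recombinant human angiopoietin-1 (100 ng/ml) together with an antibody to the poly-His tag (5 µg/ml), and the untreated group stayed in medium alone, without that antibody. All 3 groups shared the remaining conditions: male Fisher 344 rats of 5 weeks (1 month in the design text), thoracic rings of 2 mm, serum-free EBM medium, and pooling of 4 to 6 rings per RNA. Factors were added on day 13, and untreated rings were cultured for 14 days. RNA was collected at 20 h per the sample labels and at 18 h per the design text. By design each of 3 animals gave an RNA to each group, but no label ties a replicate number to an animal, so p-values below measure only the spread between these samples. Untreated replicate 1 was labelled by a 2-cycle procedure and the other RNAs by the standard one.

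Endomucin is known as a marker of capillary and venous endothelium, and most arterial endothelium carries little of it. On resting endothelial cells its extended, negatively charged ectodomain limits leukocyte adhesion. In human retinal endothelial cells endomucin is needed for internalisation of VEGF receptor 2 and for signalling after VEGF, and in mouse bone it marks, together with Pecam1, a class of capillaries coupled to bone formation. VEGF acts on endothelial cells through the receptor Kdr (VEGF receptor 2), whereas Ang1 acts through the receptor Tek (Tie2).

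In the RefSeq annotation of GRCr8, Emcn lies on chromosome 2, from 228564445 to 228644370, a span of 79926 bases. Where the probes lie within the transcript was not analysed here. The promoter is shown because many endothelial genes carry sites for ETS factors, whose core is GGAA, in their upstream DNA. The 156 bases directly before the start of the gene record, chr2:228564289-228564444 on the plus strand of GRCr8 and credited to RefSeq, read as follows 5′ to 3′, with GGAA and its reverse complement TTCC in capitals.
Emcn upstream: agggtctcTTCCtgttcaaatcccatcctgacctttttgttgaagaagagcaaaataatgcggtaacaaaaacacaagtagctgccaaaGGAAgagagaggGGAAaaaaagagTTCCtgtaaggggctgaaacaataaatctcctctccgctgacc
The window held 4 such cores, 2 on each strand. For comparison, 33469 rat promoters were read over the first 156 bases of their promoter windows, which need not end at the start of each gene record. At least 1 core was present in 82.5% of them, the median promoter held 2, and 11.5% held as many as Emcn or more. The longer string AGGAAG or its reverse complement CTTCCT, which contains the GGAA core and therefore overlaps the matches above, occurred 2 times before Emcn. It occurred at least once in 18.8% of promoters, and 2.34% held as many or more. These matches describe letters, not bound sites.

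Library quality differed between the RNAs. Ang1 replicate 2 and untreated replicate 2 stood apart: their median correlations with the other arrays A were 0.688 and 0.791, against 0.875 to 0.945 for the other 7 RNAs, and their Gapdh 3′ signals were 446.9 and 64.4, against 2217.8 to 3246.8. The ratio of the 3′ to the 5′ control signal of actin, a measure of RNA integrity and of labelling, ranged on array A from 8.79 to 12.4 in VEGF rings, from 6.18 to 8.29 in Ang1 rings and from 1.86 to 7.70 in untreated rings. Every VEGF array thus had a higher actin ratio than every other array A. The same ratio of Gapdh did not separate the groups, at 9.26, 11.1 and 15.1 in VEGF rings, 11.3, 2.27 and 10.0 in Ang1 rings, and 11.9, 1.70 and 9.11 in untreated rings.

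Emcn signal was higher in every VEGF ring RNA than in every Ang1 or untreated RNA. The deposited Emcn signal was 168.2, 161.1 and 182.6 in the VEGF RNAs, 65.9, 139.0 and 83.2 in the Ang1 RNAs, and 62.5, 72.7 and 82.1 in the untreated RNAs. All 3 VEGF values lay above the other 6, with the Ang1 replicate 2 library, one of those that stood apart, closest to them. Group means of the deposited signal were 170.6 ± 11 with VEGF, 96.0 ± 38.2 with Ang1 and 72.4 ± 9.80 in untreated rings (SD, n = 3 each). In bulk tissue, fewer cells of a type and less RNA per cell cannot be told apart, so these are levels per RNA, not per endothelial cell.

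**Figure D1:**
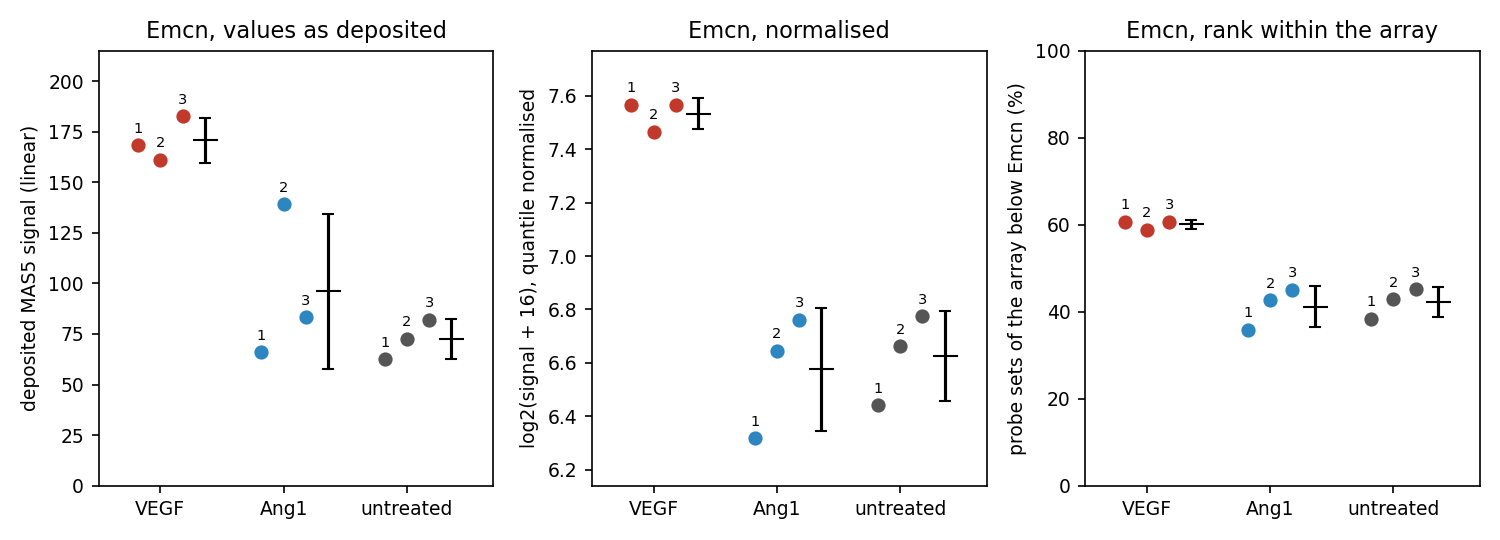
Emcn in each of the 9 RNAs, as deposited signal, as quantile-normalised log2(signal + 16) and as the percentage of the array's probe sets below it, with the VEGF, Ang1 and untreated groups from left to right, points for RNAs labelled by replicate number, and group means with SD. The VEGF points sit between 7.47 and 7.57 on the log2 scale, above all other points, while the Ang1 and untreated points overlap.

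After quantile normalisation over the 9 arrays A, Emcn stood at 7.57, 7.47 and 7.57 in VEGF rings, at 6.32, 6.65 and 6.76 in Ang1 rings, and at 6.44, 6.66 and 6.77 in untreated rings, in log2(signal + 16). The normalisation brought Ang1 replicate 2, whose array had the highest median, into the range of the untreated values. Group means were 7.53 ± 0.06 with VEGF, 6.58 ± 0.23 with Ang1 and 6.63 ± 0.17 in untreated rings (SD, n = 3 each). The order of levels was therefore VEGF above the other groups, while Ang1 and untreated rings, neighbours in that order, did not differ beyond their spread.

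The VEGF minus untreated difference of Emcn was 0.91 ± 0.26 on the log2 scale (SE), a 1.88-fold higher level. Because 16 was added before the logarithm, folds of dim genes are understated, and with 1 added instead the difference was 1.03. The ratio of the deposited means, which has neither the added constant nor the normalisation, was 2.36. Among the 9520 probe sets of array A kept for testing, 154 (1.62%) had a larger VEGF minus untreated difference. No kept probe set of array A passed an adjusted p of 0.05 in that comparison in limma (0%), and 158 (1.66%) had an unadjusted p below 0.05, or 297 with the replicate number as a block. Without Ang1 replicate 2 and untreated replicate 2 the Emcn difference was 0.97 ± 0.25.

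Emcn in Ang1 rings did not differ from untreated rings beyond the spread. The Ang1 minus untreated difference was -0.05 ± 0.26 (0.966-fold, limma adjusted p = 0.99), with a 95% interval from -0.62 to 0.52, in a comparison that shares its untreated arrays with the one Emcn was chosen for. The interval leaves room for a moderate difference either way. In the deposited signal, before normalisation, the ratio of means was 1.33, with Ang1 replicate 2, at 139.0, the highest of those 6 values. VEGF minus Ang1 was 0.96 ± 0.26, or 1.94-fold, and 278 kept probe sets (2.92%) had a larger difference. That comparison shares its VEGF arrays with the first one.

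Emcn varied little among RNAs of 1 group. Its residual SD in the model was 0.169, and 2.16% of the kept probe sets had a smaller one. The gene was dim: 86.5% of the kept probe sets were brighter on average. On VEGF arrays, 58.8 to 60.7% of all probe sets lay below it, whereas the share was 35.9 to 45.0% on Ang1 arrays and 38.4 to 45.2% on untreated arrays. The filter kept probe sets whose mean was at or above the 40th percentile, so the Ang1 and untreated levels of Emcn lay near it. The actin ratio was 8.79 to 12.4 on the VEGF arrays A and 8.29 or lower on all others, so it cannot be told apart from the treatment. The part of the actin ratio in the VEGF difference was not tested.

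None of the other kept endothelial markers had a VEGF minus untreated difference as large as Emcn. Of 43 listed endothelial genes, 38 had a probe set of their own and 32 were bright enough to keep, 24 on array A and 8 on array B. Flt1, Nos3, Calcrl, Gpihbp1, Plvap and Shank3 fell below the filter, and Cdh5, Robo4, Cd34, Ecscr and Bmx had no probe set of that symbol alone. In VEGF minus untreated, 18 of the 32 were higher and 14 lower, where 49% of all kept probe sets were higher. Of the 32, 0 passed an adjusted p of 0.05 in limma, as did 0% of all kept probe sets. None had an unadjusted p below 0.05 (0 of 32), which 1.66% of kept probe sets of array A and 0.72% of array B had. Their median difference was 0.145, against -0.00805 over all kept probe sets. Without both libraries that stood apart the filter was redrawn and kept 35 markers, with a median of -0.0483. The differences ran from -0.51 for Cldn5, a tight junction protein, to 0.86 for Eng, a TGF-beta co-receptor, and 0 of the 32 exceeded that of Emcn.

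Few of these markers separated the groups. Sox18, an endothelial transcription factor, was the 1 marker of 32 whose VEGF arrays all lay above the untreated arrays, where 3.08% of all kept probe sets did so. Tek, Sox17 and Nostrin, 3 markers in all and each on array B, had every VEGF array below every untreated array, where 4.36% of all kept probe sets did so. For 0 of 32 markers did the VEGF arrays lie above all 6 others, the pattern of Emcn, which 70 probe sets of array A (0.735%) and 0.589% of kept probe sets on both array types had. Since Emcn was chosen for being higher with VEGF, these counts set it beside the markers and test nothing. The spread differed as well: over the 24 markers on array A the residual SD ranged from 0.161 to 1.33 with a median of 0.556. Most of them thus had a larger residual SD than Emcn, whose choice may favour a small one.

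**Figure D2:**
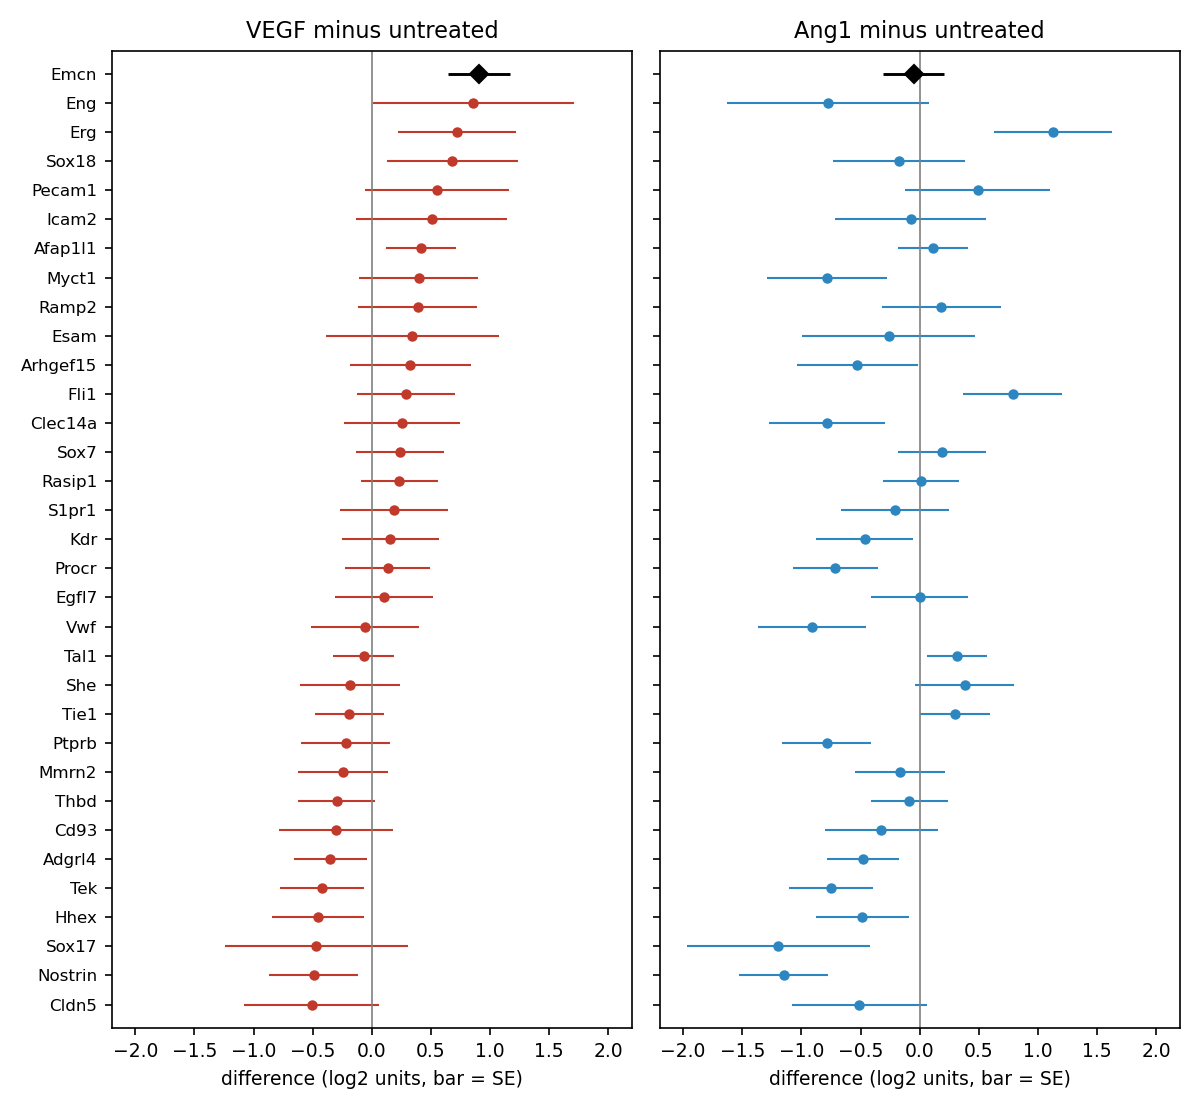
Differences in log2 units for Emcn and the 32 kept endothelial markers, VEGF minus untreated on the left and Ang1 minus untreated on the right, as points with the SE of the limma fit. Emcn has the highest VEGF point, at 0.91, with markers from -0.51 to 0.86, and its Ang1 point is at -0.05.

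The receptors of both ligands were read. Kdr was at 9.11, 8.72 and 8.77 in VEGF rings, at 8.42, 7.25 and 9.05 in Ang1 rings, and at 8.72, 8.75 and 8.66 in untreated rings, in normalised log2 units. The groups overlapped, the low value came from Ang1 replicate 2, and VEGF minus untreated was 0.16 ± 0.41. Tek, the Ang1 receptor, was at 10.94, 10.61 and 11.06 in VEGF rings, at 10.83, 9.81 and 10.96 in Ang1 rings, and at 11.25, 11.12 and 11.49 in untreated rings. All VEGF and Ang1 values of Tek lay below all untreated values, the Ang1 order being shared by 8.76% of kept probe sets of array B, and the VEGF minus untreated difference was -0.42 ± 0.36 (limma adjusted p = 1).

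Among the endothelial transcription factors, Sox18 differed by 0.68 ± 0.56 between VEGF and untreated rings, Sox7 by 0.24 ± 0.37 and Sox17, which is strongest in arteries, by -0.47 ± 0.77. Erg, an ETS factor of endothelial cells, differed by 0.72 ± 0.50 on array A, with its lowest value, 5.18, in untreated replicate 2. A brighter Erg probe set on array B (mean 8.96, against 7.02) had the opposite sign, at -0.26. Among surface receptors, Ramp2 (the partner of the adrenomedullin receptor) differed by 0.39 ± 0.50, S1pr1 (a sphingosine 1-phosphate receptor) by 0.19 ± 0.46, Cd93 by -0.30 ± 0.48 and Adgrl4 by -0.35 ± 0.31. The secreted Egfl7, the endothelial marker Arhgef15 and Nostrin, which binds endothelial nitric oxide synthase, differed by 0.10 ± 0.41, 0.33 ± 0.51 and -0.49 ± 0.38. Each of these genes had a smaller difference than Emcn and a larger SE. Erg is outside the 12 brightest markers.

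Junctional and secreted markers spread widely within groups. Pecam1, a junctional adhesion molecule, was at 8.20, 7.36 and 7.13 in VEGF rings, at 8.28, 6.29 and 7.93 in Ang1 rings, and at 7.96, 5.91 and 7.17 in untreated rings. Its lowest values came from both libraries that stood apart, and VEGF minus untreated was 0.55 ± 0.61. Vwf, the clotting protein stored in endothelial granules, differed by -0.06 ± 0.46. Of the 7 markers with more than 1 kept probe set, 3 had probe sets of opposite sign in VEGF minus untreated, so the direction of a single marker should be read with its SE.

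With Ang1, 0 of the 32 endothelial markers passed an adjusted p of 0.05 in limma (0% of all kept probe sets), and their median Ang1 minus untreated difference was -0.23, against -0.0265 over all kept probe sets. That median was 0.0474 with Ang1 replicate 2 left out, so it rests on Ang1 replicate 2. With untreated replicate 2 left out as well, it was -0.0289 over the 35 markers then kept. The lowest adjusted p was 0.467. In VEGF minus Ang1, 25 markers were higher and 7 lower, where 52.5% of all kept probe sets were higher, with a median of 0.263, and 3 differed by more than Emcn. Without Ang1 replicate 2, 15 were higher and 17 lower (median -0.0456). Ang1 replicate 2 was the lowest of the 9 RNAs for Kdr, Tek, Sox17 and Sox18. Other markers went the other way: it was the highest of the 9 for She, Tal1, Fli1 and Erg, each on array A. For Emcn it was neither the lowest nor the highest.

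The mean of the 24 endothelial markers on array A describes the signal of those markers in each library. It was 8.28, 7.92 and 8.23 in VEGF rings, 8.12, 7.51 and 8.23 in Ang1 rings, and 8.22, 7.65 and 8.32 in untreated rings. Group means were 8.14 with VEGF, 7.96 with Ang1 and 8.06 in untreated rings, and the groups overlapped. The lowest values came from Ang1 replicate 2 and untreated replicate 2, the libraries that stood apart. Endothelial content and library quality cannot be told apart in this mean. The VEGF minus untreated difference of this mean was 0.08, and that of Ang1 minus untreated was -0.11.

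Emcn minus that mean, taken within each array, was -0.72, -0.45 and -0.66 in VEGF rings, -1.80, -0.87 and -1.47 in Ang1 rings, and -1.78, -0.99 and -1.54 in untreated rings. The zero of this scale has no meaning, because probe sets differ in brightness, and only differences between RNAs can be read. All 3 VEGF values lay above the other 6. This scale reuses the values that Emcn was chosen by, so that order is a description and tests nothing. The VEGF minus untreated difference was 0.82, and without both libraries that stood apart, with 27 markers kept, it was 1.08. Ang1 minus untreated was 0.06 and VEGF minus Ang1 was 0.77. The values closest to the VEGF group came from Ang1 replicate 2 and untreated replicate 2, the RNAs with the lowest endothelial mean.

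**Figure D3:**
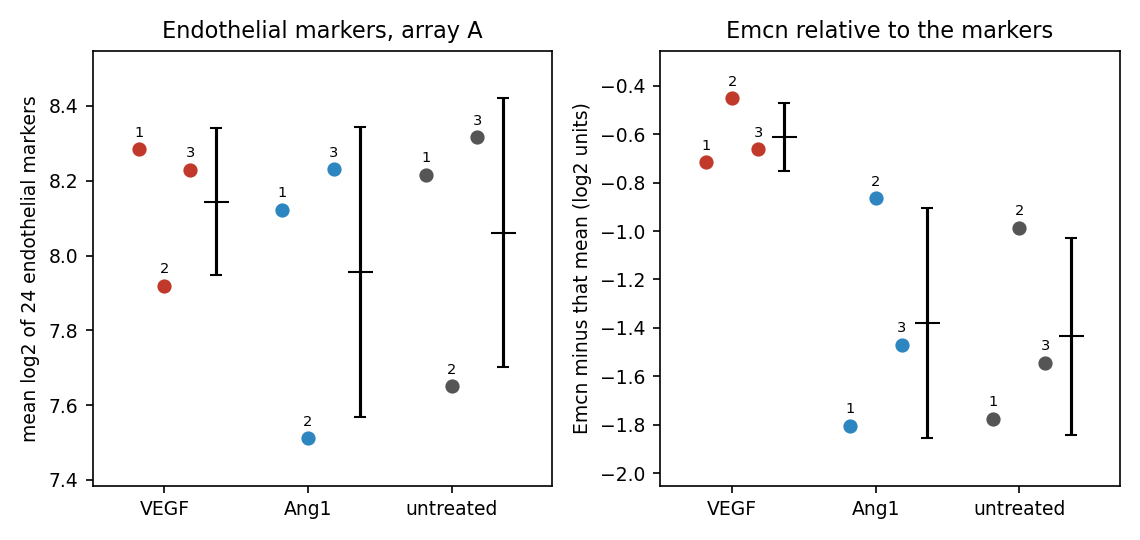
Mean of the 24 endothelial markers on array A, and Emcn minus that mean, per RNA in log2 units, with points for RNAs, replicate numbers and group means with SD, for VEGF, Ang1 and untreated rings from left to right. The endothelial mean overlaps between groups, whereas Emcn minus that mean is -0.72 to -0.45 with VEGF and -0.87 or lower in all other RNAs.

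Lists that separate kinds of endothelium were read next. Of the capillary and venous markers, 17 were on the arrays and 6 were kept, and Ackr1, Selp, Aplnr and Plvap, which mark veins, activated endothelium or fenestrated capillaries, fell below the filter. In VEGF minus untreated 2 of the 6 were higher and 4 lower (median -0.0534). Tspan7, a tetraspanin, differed by -0.49 ± 0.38, the fatty acid carrier Fabp4 by 0.30 ± 0.36, the lipoprotein lipase Lpl by -0.18 ± 0.37 and Nr2f2, the transcription factor of venous identity, by -0.05 ± 0.47. Arterial markers split into 10 higher and 9 lower of 19 (median 0.0159), with 0.50 ± 0.31 for the BMP9 receptor Acvrl1, -0.43 ± 0.38 for the Notch ligand Jag1 and -0.19 ± 0.17 for the matrix protein Mgp. Lymphatic markers split into 4 higher and 2 lower of 6 (median 0.196), with Lyve1, a hyaluronan receptor, at 0.45 ± 0.37, Ccl21, a chemokine, at 0.86 ± 0.73, the secreted protein Reln at 0.17 ± 0.40 and Prox1, the transcription factor of lymphatic identity, at -0.15 ± 0.47. No member of these 3 lists passed an adjusted p of 0.05 in limma (0 genes), and Vwf and Sox17 are also in the endothelial list.

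Other sialomucins and mucin-like molecules had smaller VEGF minus untreated differences than Emcn. Of 15 listed, 11 had a probe set and 8 were kept, 6 higher and 2 lower with a median of 0.0843, and 0 passed the adjusted threshold in limma. Podxl (podocalyxin), another sialomucin known from vascular endothelium, was at 8.51, 8.45 and 9.48 in VEGF rings, at 8.56, 8.65 and 8.87 in Ang1 rings, and at 8.49, 8.38 and 8.84 in untreated rings. The groups overlapped, with a single high VEGF value, and the difference was 0.24 ± 0.33. Mcam, an immunoglobulin-type adhesion molecule, differed by 0.40 ± 0.56, the leukocyte sialomucin Spn by 0.33 ± 0.41, the addressins Madcam1 and Glycam1 by 0.09 ± 0.25 and 0.08 ± 0.30, Parm1 by 0.03 ± 0.45, Muc1 by -0.13 ± 0.30 and Cd164 by -0.15 ± 0.25. Podxl2, Muc4 and Muc13 fell below the filter.

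Enzymes that build O-linked sugars of the mucin type showed no common direction. Of 26 kept genes, 15 were higher and 11 lower (median 0.0223), and 0 passed the adjusted threshold. Galnt6, which starts O-glycan chains, was at 6.85, 6.43 and 7.28 in VEGF rings and at 5.95, 6.43 and 6.18 in untreated rings, a difference of 0.67 ± 0.32. St6galnac6 and St3gal2, both sialyltransferases, differed by 0.55 ± 0.31 and -0.48 ± 0.32. For Galnt6 and St6galnac6 the VEGF arrays lay above the untreated arrays, as for 3.59% of kept probe sets of array A.

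Leukocyte adhesion molecules, which bring leukocytes and endothelium into the contact that endomucin limits, split into 11 higher and 5 lower of 16 (median 0.148), or 9 and 6 of 15 without both libraries that stood apart (median 0.0396). Icam1, the endothelial ligand of leukocyte integrins, differed by 0.87 ± 0.65 and Itgal, the alpha chain of that integrin on leukocytes, by 0.55 ± 0.39, and both had all VEGF arrays above all untreated arrays, as for 3.08% of all kept probe sets. Cd99 differed by 1.58 ± 1.23, with a value of 4.55 in untreated replicate 2 against 9.18 and 9.06 in the other untreated RNAs. None of the 16 passed an adjusted p of 0.05 in limma (0 genes).

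In the VEGF receptor axis, the ligands, receptors and signalling partners of VEGF, 9 genes were higher and 13 lower of 22 (median -0.0469), or 13 and 11 of 24 without both libraries that stood apart (median 0.0382), and 0 passed the adjusted threshold. The co-receptor Nrp1 differed by 0.66 ± 0.66, the ligand Vegfb by -0.31 ± 0.32 and Cav1, the caveolar coat protein, by -0.43 ± 0.24, with every VEGF array of Cav1 below every untreated array, as for 4.79% of kept probe sets of array A. Over all 17 lists, which held 198 distinct kept genes, 0 were called and 0 had VEGF arrays above all 6 others, against 0.589% of all kept probe sets. An unadjusted p below 0.05 was found for 2 of the 198, against 1.66% of kept probe sets on array A and 0.72% on array B. With the replicate number as a block there were 10, against 3.12% and 1.07%, still with 0 called. These were the smooth muscle genes Pln, Tpm2, Myh11 and Casq2, the macrophage genes Cd14, C1qa, Coro1a and C1qb, and Anpep and Cd99. In 5 genes the VEGF minus untreated difference exceeded that of Emcn: Cd99 and the macrophage genes Cd14 (1.07), C1qa (1.70), Coro1a (1.89) and Adgre1 (1.04). In C1qa the VEGF values were 10.87, 10.03 and 10.36 and the untreated values 10.55, 6.48 and 9.11, so the low value of untreated replicate 2 enters that difference. In Adgre1, on array B, the VEGF values were 11.53, 11.55 and 11.33 and the untreated values 10.34, 10.63 and 10.32. Its VEGF arrays thus all lay above its untreated arrays, as for 3.08% of all kept probe sets.

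**Figure D4:**
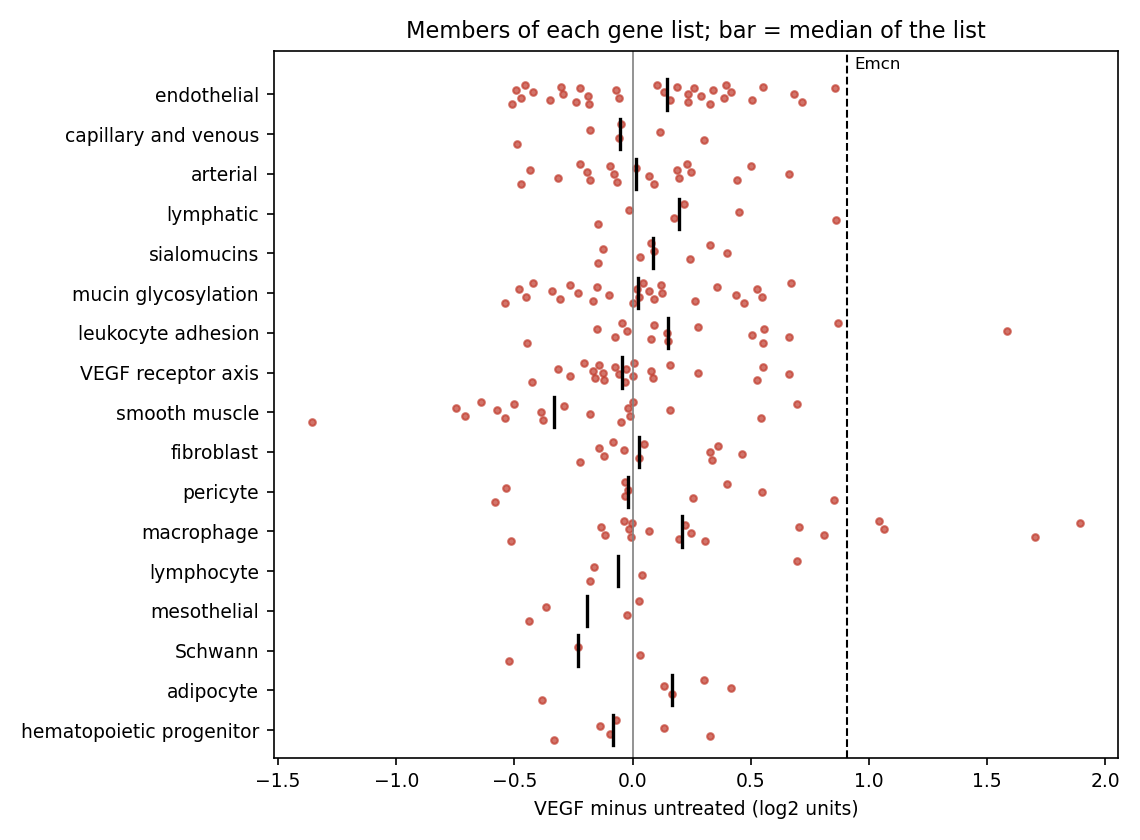
VEGF minus untreated differences in log2 units of the kept genes of each marker list, 1 point per gene with a bar at the list median, and Emcn as a dashed line. Most points lie below the Emcn value of 0.91, and 5 lie above it.

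Markers of other cell types were measured in the same RNAs. Smooth muscle markers split into 4 higher and 14 lower of 18 (median -0.335), or 1 higher and 17 lower without both libraries that stood apart (median -0.465). The 2 genes of all lists with an unadjusted p below 0.05 in the fit without the block were here: Pln, a regulator of the calcium pump, at -1.36 ± 0.27, and Tpm2, a tropomyosin, at -0.75 ± 0.29. Neither passed the adjusted threshold (limma adjusted p = 1), and Casq2, a calcium store protein, differed by -0.64 ± 0.31. The contractile genes Myh11 and Acta2 differed by -0.71 ± 0.39 and -0.38 ± 0.45. The mean of the list on array A ranged from 8.59 to 9.03 in VEGF rings, from 8.41 to 9.08 in Ang1 rings and from 8.51 to 9.46 in untreated rings. The lowest Ang1 and untreated values, 8.41 and 8.51, came from the libraries that stood apart. With them the groups overlapped, but the other untreated RNAs, at 9.35 and 9.46, lay above all VEGF values. The part of this list in the Emcn difference was not tested.

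Macrophage markers split into 11 higher and 7 lower of 18 (median 0.209), with a list mean from 9.36 to 9.52 in VEGF rings, from 8.91 to 9.41 in Ang1 rings and from 8.55 to 9.49 in untreated rings, while C1qb, a complement component, differed by 0.81 ± 0.37 and the general markers Cd68 and Ptprc by -0.01 ± 0.35 and -0.01 ± 0.55. Without both libraries that stood apart, 18 macrophage markers were higher and 0 lower (median 0.447). Of the untreated RNAs left, replicate 1 had a list mean of 9.49, inside the VEGF range, and replicate 3 one of 8.55. The low values of untreated replicate 3 thus enter that split. The part of the macrophage markers in the Emcn difference was not tested. Fibroblast markers split into 6 and 5 of 11 (median 0.0282), pericyte markers into 4 and 5 of 9 (median -0.0212, Pdgfrb -0.03 ± 0.39), adipocyte markers into 4 and 1 of 5 (median 0.166) and lymphocyte markers into 2 and 2 of 4 (median -0.0617), the higher count given first. Mesothelial markers split into 1 and 3 of 4 (median -0.194), Schwann cell markers into 1 and 2 of 3 (median -0.229) and hematopoietic progenitor markers into 2 and 4 of 6 (median -0.0822). Among pericyte genes, the aminopeptidase Anpep differed by 0.85 ± 0.40, the potassium channel subunit Abcc9 by -0.58 ± 0.29 and the G protein regulator Rgs5 by -0.54 ± 0.36. Among fibroblast genes, the collagen Col1a1 differed by 0.36 ± 0.32, the receptor Pdgfra by 0.34 ± 0.33 and the matrix protein Postn by 0.46 ± 0.46. The B cell marker Ms4a1 differed by 0.69 ± 0.41, the T cell genes Lck and Cd3g by -0.16 ± 0.27 and -0.18 ± 0.34, and the fat cell genes Adipoq and Pparg by 0.42 ± 0.64 and -0.38 ± 0.40. The mesothelial genes Msln, Krt8 and Krt18 differed by -0.44 ± 0.54, -0.36 ± 0.30 and 0.03 ± 0.44. The Schwann cell genes S100b, Pmp22 and Ncam1 differed by -0.52 ± 0.31, -0.23 ± 0.35 and 0.03 ± 0.28, and the progenitor genes Meis1 and Procr by -0.33 ± 0.30 and 0.13 ± 0.36. None of these passed an adjusted p of 0.05 in limma (0 genes). Of the listed genes with a probe set of their own, the filter kept 32 of 38 for endothelium and 18 of 18 for smooth muscle. It kept 18 of 19 for macrophages and 11 of 12 for fibroblasts.

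Genes whose level followed Emcn over the 9 RNAs were ranked by Pearson's r among 7176 genes of array A with 1 symbol, as a description, since the points share libraries and depth and Emcn itself separates the groups. The highest r was that of Ndufaf8, an assembly factor of respiratory complex I (0.908), followed by Fam43a (0.83), Apln (0.824), Ckap5, which lengthens microtubules (0.815), Rmdn3, which tethers mitochondria to the endoplasmic reticulum (0.811), Rusc2 (0.811), the clock gene Per1 (0.793) and the chromatin protein Brd8 (0.79). Without both libraries that stood apart, r of these genes with Emcn lay between 0.798 and 0.938, but only Rmdn3, 1 of the 8, was still among the 8 highest. By Spearman's correlation, and with values as deposited, 4 of the 8 were. With each group's mean removed, r of these 8 genes ran from 0.43 for Ndufaf8 to 0.841 for Brd8.

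Apln encodes apelin, a peptide ligand made by endothelial tip cells of growing vessels. It was at 7.89, 7.74 and 8.21 in VEGF rings, at 6.63, 7.28 and 7.73 in Ang1 rings, and at 6.96, 7.68 and 6.94 in untreated rings. All VEGF values lay above all other values by a narrow margin, and VEGF minus untreated was 0.75 ± 0.35. Ndufaf8 was at 8.61, 8.55 and 8.91 in VEGF rings, at 8.16, 8.19 and 8.10 in Ang1 rings, and at 7.99, 8.26 and 8.34 in untreated rings, with no overlap between the VEGF group and the others and a difference of 0.49 ± 0.26. Both genes were picked for following Emcn, whose VEGF values stand apart, so the picking favours this separation. On array A, 0.735% of kept probe sets had their VEGF arrays above all 6 others.

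**Figure D5:**
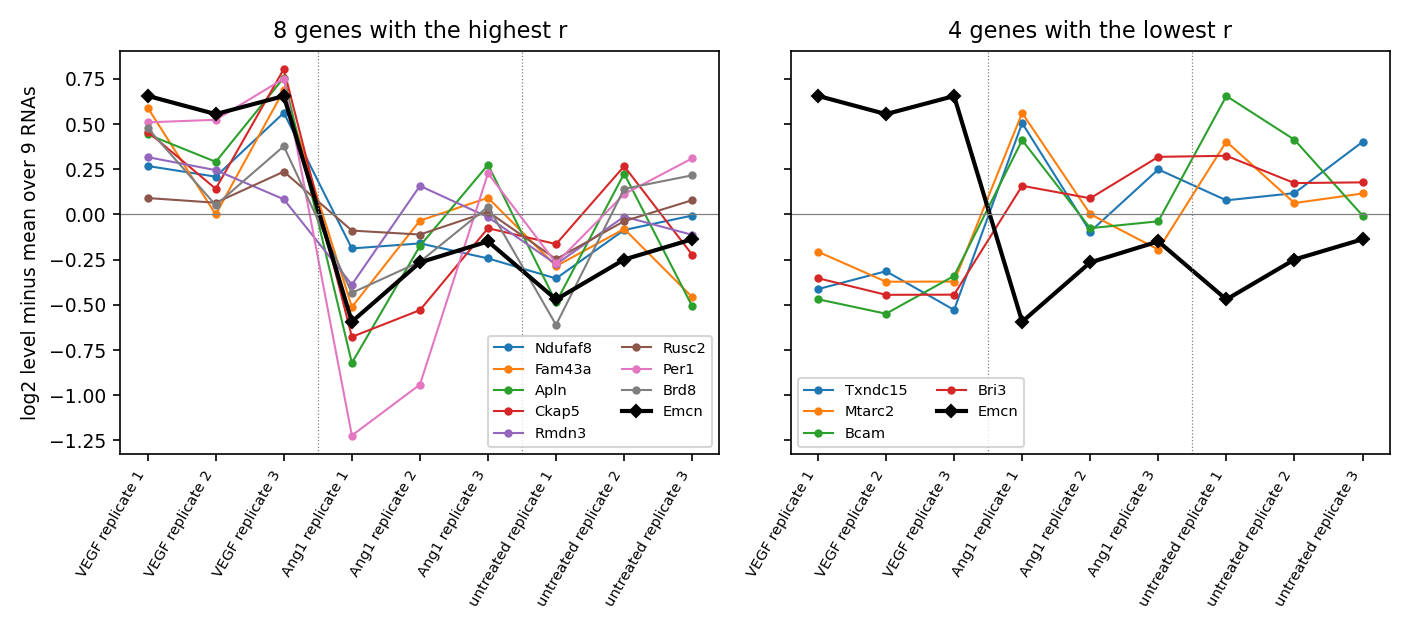
Level of Emcn and of the genes with the highest and lowest Pearson correlation to it over the 9 RNAs, each centred on its own mean, in log2 units. The highest, Ndufaf8, has r = 0.908 and the lowest, Bri3, has r = -0.921.

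The lowest correlations were those of Bri3 (-0.921), Bcam, a laminin receptor (-0.89), Mtarc2, a mitochondrial reductase (-0.87), and Txndc15 (-0.861). Bri3 was at 9.26, 9.17 and 9.17 in VEGF rings, at 9.77, 9.70 and 9.93 in Ang1 rings, and at 9.94, 9.79 and 9.79 in untreated rings, so the VEGF values lay below all others. Picking genes by their r with Emcn favours such a separation. Within groups, the genes most like Emcn were C13h1orf21 (0.933), the kinase Rps6ka2 (0.899), the protease inhibitor Slpi (0.894), the microtubule protein Map4 (0.88) and Lhfpl2 (0.879). Over all 9 RNAs their r was between -0.142 and 0.321. The endothelial markers were not among the genes most like Emcn: of the 24 on array A, 15 had r above 0, with a median of 0.0964 against 0.0187 over all genes, and a range from -0.486 for the receptor Tie1 to 0.554 for Afap1l1.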

How the data were processed

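Linear intensities, 1 per probe set and array, were deposited by the authors, who made them with MAS5 per the submitters' processing notes (version not given in the sources used here). The mean after trimming 2% at each end was 250.0 to 250.1 on every array except the array B of Ang1 replicate 3, where it was 94.79. Array medians of log2(signal + 16) differed by 0.762 on array A and 1.59 on array B, so arrays of a type were quantile normalised. Control probe sets (57 per type) were left out, and those with a mean at or above the 40th percentile were tested (array A 9520, array B 9166). Symbols came from the platform annotation, updated by gene ID: 12789, 312 and 2822 probe sets of array A, and 7570, 100 and 7663 of array B, had 1 symbol, several or none. Detection calls were not used.

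The 3 comparisons were fitted in limma 3.58.1 (R 4.3.3) in 1 model over the 9 arrays of a type with an intensity trend, and p-values were adjusted by Benjamini-Hochberg within the type at 0.05. Same-numbered RNAs deviated together between VEGF and untreated rings (correlations 0.145 to 0.412 on array A, 0.158 to 0.288 on array B) and between Ang1 and untreated rings (0.338 to 0.489 and 0.143 to 0.246), but not in every pair of VEGF and Ang1 rings (-0.147 to 0.235 and -0.214 to 0.233). The pairing thus comes from the data, and the fit with the replicate block is given where it moves a count. The steps were tested on simulated data. The smallest p an exact test of 3 against 3 can give is 0.1, hence the model over all genes, and the number of arrays limits the precision. A gene was read from its brightest kept probe set, on array A where it was on both types. Figures were drawn with matplotlib 3.10.9 in Python 3.11.15.

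Emcn, the gene lists and the tests were chosen with earlier results of these data known. Named with values were Emcn, the 12 brightest endothelial markers, all kept sialomucins, the 3 members of each other list with the smallest p in VEGF minus untreated, defining markers, the 8 genes with the highest and the 4 with the lowest correlation with Emcn, and the 5 with the highest correlation within groups. Other genes were named after their values were seen. Alternatives were pseudocounts of 1 and 64, no filter, median scaling, values as deposited, a fit of only the groups compared, the replicate block, Spearman's correlation, and leaving out libraries. The list counts without the libraries that stood apart, and with the block, were added after the values were seen.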

Additional observations from a re-analysis of the deposited data

How the results depend on the processing

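Each comparison was recomputed under 17 alternatives. VEGF minus untreated of Emcn stayed positive in all 17, from 0.66 (pseudocount 64) to 1.08 (values as deposited), and from 0.81 to 0.97 when 1 library was left out. VEGF minus Ang1 stayed positive in all 17, and was 0.70 with pseudocount 64, 0.79 with values as deposited, and 0.83 to 1.04 with 1 library left out. Emcn was chosen for being higher with VEGF, and its VEGF values lay above all others. The unchanged signs therefore test nothing, and only the sizes are described. Ang1 minus untreated turned positive in 3: 0.29 with values as deposited, 0.079 without Ang1 replicate 1 and 0.024 without untreated replicate 3. With 1 library left out it ran from -0.14 to 0.079, with limma adjusted p from 0.881 to 0.998 over all 17. VEGF minus untreated of Emcn minus the endothelial mean stayed positive, from 0.61 to 1.08, with the same limit on its sign. The number of endothelial markers called was 0 throughout, and the median of VEGF minus untreated ranged from -0.0483 to 0.211, and that of Ang1 minus untreated from -0.568 to 0.0474. Leaving out both libraries that stood apart also redrew the filter, so some lists then held other genes. The VEGF minus untreated median then also changed sign in the arterial (-0.0421), mucin glycosylation (-0.00491), fibroblast (-0.0283), lymphocyte (0.00847), mesothelial (0.262) and Schwann cell (0.0467) lists. Of the 8 genes most like Emcn, 4 were shared by Spearman's correlation, 4 by values as deposited and 1 without both libraries that stood apart.

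With the replicate block, VEGF minus untreated of Emcn was 0.91 ± 0.27 and no adjusted call changed on either array type, while each of 9 RNAs correlated best with one of its own number. By number, the Emcn differences were 1.13, 0.804 and 0.792 for VEGF minus untreated, and -0.122, -0.0156 and -0.0115 for Ang1 minus untreated. One dim probe set carries every Emcn value, and no second probe set or array type checks it.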
